A study of Mus musculus with 6 samples.

Results

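The glycolysis and lactate genes are 32 of the 32285 genes in the deposited matrices, chosen by symbol and not by their values. They cover glucose and lactate transporters, the enzymes from hexokinase to pyruvate kinase, both lactate dehydrogenase subunits, the kinases that hold back pyruvate dehydrogenase, and enzymes of the side branches to fructose 2,6-bisphosphate, 2,3-bisphosphoglycerate and glycogen. They were measured in hematopoietic stem and progenitor cells (HSPCs) of mice that carried a transplanted acute myeloid leukemia (AML) or none. Female C57BL/6J (CD45.1) mice of 8 to 12 weeks, not conditioned beforehand, received either PBS or 1000000 cells of C1498, a murine AML line that carries CD45.2, by vein. At day 21 the host's own HSPCs were sorted from bone marrow as CD45.1+ Lin- cKit+ Sca1+ (LSK) cells and profiled by droplet single-cell RNA sequencing. Of 3 PBS and 3 AML libraries, the authors' cell table holds cells of 5, with 0 cells of AML replicate 2, so that AML was compared with PBS as 2 C1498-engrafted against 3 PBS-injected libraries, and phases and classes were compared within the 3 PBS libraries. Whether each library came from 1 mouse is not given in the labels, and p-values measure the spread between these libraries only.

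Glycolysis splits glucose into pyruvate in the cytosol and yields ATP without oxygen. Lactate dehydrogenase turns pyruvate into lactate and regenerates the NAD+ that glyceraldehyde phosphate dehydrogenase needs, while pyruvate dehydrogenase sends pyruvate into the mitochondria and is switched off by the pyruvate dehydrogenase kinases. Many of these genes are targets of the hypoxia-inducible factors and of MYC, and quiescent hematopoietic stem cells in the bone marrow are known for relying on glycolysis more than their cycling progeny.

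The kept cells numbered 16822, with 693 to 6838 in a library, 1945659 to 32123508 UMIs (counted RNA molecules) in all and a median of 2393 to 9586 UMIs per cell. Cell barcodes recurred between libraries: 1223 of the 1256 barcodes of PBS replicate 2 were also in the matrix of AML replicate 2, and 258 to 1854 of the kept cells of a library, with all 934 of PBS replicate 2, had a barcode that occurred in another matrix. A barcode kept as a cell in another library too was found for 2 to 26 of them. In AML replicate 1, 693 of 8781 barcodes and 1945659 of 10359436 UMIs belonged to kept cells, against 3959 of 5587 barcodes and 27603274 of 34672919 UMIs in AML replicate 3. AML replicate 1 stood apart by its depth and by its makeup, with 14.7% of its cells in the G1 phase against 49.0% in AML replicate 3 and 55.9 to 58.2% in the PBS libraries. The deposited cell table puts each cell in a class (HSC or one of the multipotent progenitor classes MPP-2, MPP-3 and MPP-4), assigned from module scores on its RNA, and in a cell cycle phase (G1, S or G2M). The class markers were highest in their own class, in the PBS mean, for 15 of 15 HSC, 10 of 10 MPP-3, 7 of 11 MPP-4 and 6 of 12 MPP-2 markers, so that the MPP-2 markers bore out their label least. The deposited phase calls, which give every cell a phase, put 88.5% of its cells in S or G2M against 15.1% of HSC, 29.1% of MPP-4 and 53.8% of MPP-3 cells. Classes were therefore compared both over all cells and within G1 cells, and phases both with and without class as a term.

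Levels are given as counts per 1000000 UMIs of the library (CPM), a 3′ tag measure that does not scale with transcript length, and as the mean ± SD of the 3 PBS libraries. Gapdh, the enzyme that oxidises glyceraldehyde phosphate, stood highest at 2131 ± 248 CPM (n = 3). It was followed by a group of housekeeping isoenzymes, namely Aldoa (339 ± 67.6), Ldha (316 ± 79.2), Tpi1 (313 ± 53.2), Pkm (269.8 ± 104), Pgk1 (241 ± 53.4), Gpi1 (221 ± 78.5) and Pgam1 (165 ± 43.9), with Ldhb next at 126 ± 21.2. From Aldoa to Pgam1 each level lay within the spread of its neighbour in this order. In all, 9 members reached 100 CPM and 9 lay under 10 CPM.

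The hexokinases and phosphofructokinase subunits, which commit glucose to the pathway, lay below each of the 9 members that reached 100 CPM. Of the hexokinases, Hk2 (39.2 ± 7.69 CPM) and Hk1 (34.8 ± 4.47) did not differ beyond their spread, and Hk3 was at 12.7 ± 0.322. Of the phosphofructokinase subunits the liver form Pfkl led (31.9 ± 7.66), above Pfkp (8.48 ± 0.925) and the muscle form Pfkm (7.96 ± 1.08). Pfkfb3 (15.3 ± 2.34) and Pfkfb4 (7.37 ± 0.5) make or remove fructose 2,6-bisphosphate, the activator of phosphofructokinase. Among the transporters the high-affinity glucose carrier Slc2a3 (32.6 ± 7.40) was above Slc2a1 (18.7 ± 6.97), and the lactate carrier Slc16a1 (8.16 ± 0.693) was above Slc16a3 (1.86 ± 1.07). Pdk1 (32.4 ± 3.92) and Pdk3 (30.9 ± 3.72) were above Pdk2 (8.06 ± 1.45). The side branches held Minpp1 (31.9 ± 6.88), Pgm2 (19.5 ± 5.47), Bpgm (18.6 ± 4.11), which makes 2,3-bisphosphoglycerate, and Pgm1 (16.8 ± 2.97). Isoenzymes typical of brain and muscle were low: Aldoc was at 4.65 ± 2.53, Eno3 at 4.38 ± 1.04 and Eno2 at 0.369 ± 0.185 CPM, whereas the common enolase Eno1 was at 67.9 ± 23.9. Of these Eno2 alone was near the level that 3 counts give in a PBS library (0.0934 to 0.288 CPM). Eno2 had 0 UMIs in AML replicate 1, which allows a level of up to 1.54 CPM (3 counts, counting error only). Several of these genes, Gapdh, Aldoa, Tpi1, Pgk1, Pgam1, Eno1, Pkm and Ldha among them, have processed pseudogenes or near-identical copies with which they may share reads, so their levels carry that uncertainty.

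**Figure D1:**
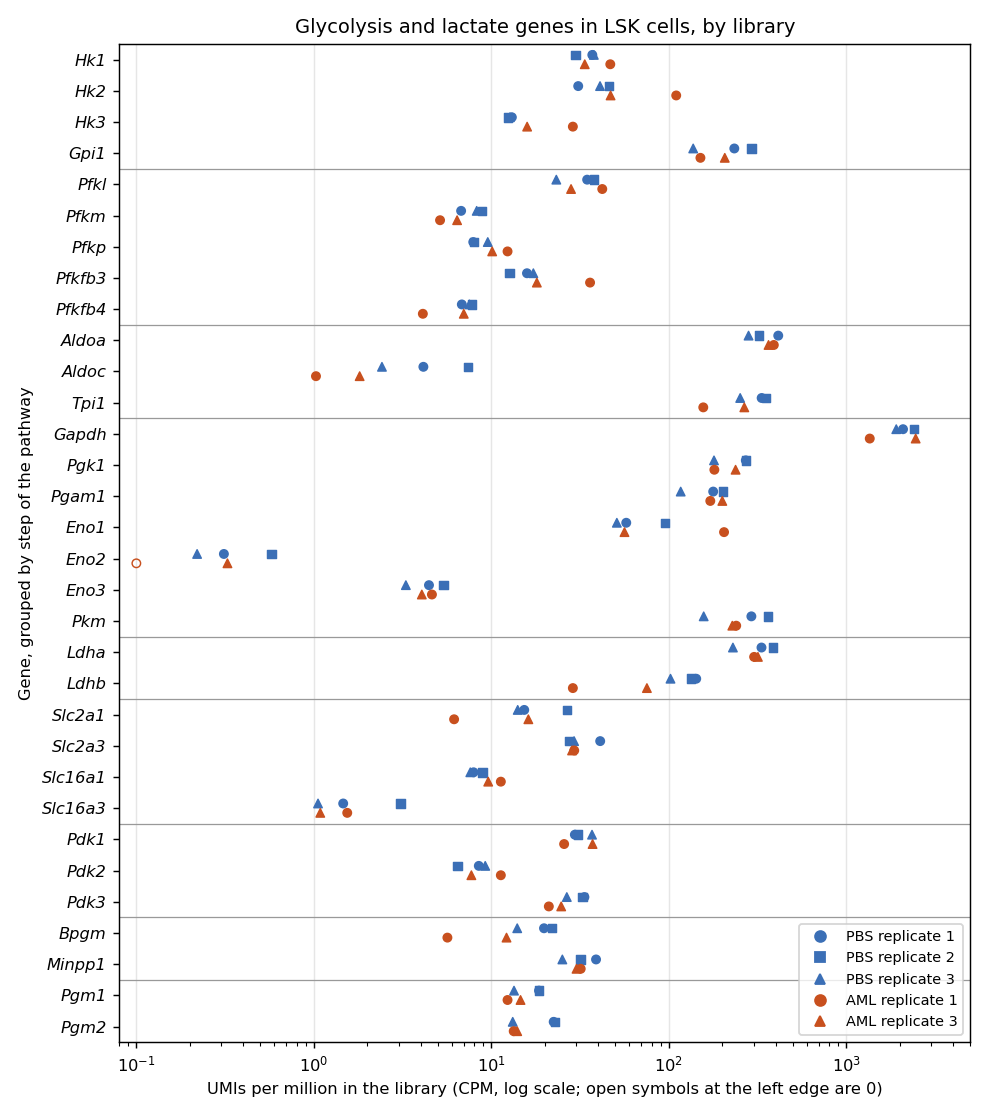
Level of each glycolysis and lactate gene (CPM, log scale) in all kept LSK cells of each library, grouped by step of the pathway. Blue symbols are the 3 PBS libraries and orange symbols the 2 AML libraries, with open symbols at the left edge for a level of 0; Gapdh is the highest member in all 5 libraries, and for Ldhb both AML symbols lie left of all PBS symbols.

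Because the hypoxia-inducible factors bind the letters ACGTG and MYC binds CACGTG, both were searched on either strand in the 300 bases around each RefSeq start (250 before and 50 after, GRCm38.p6). ACGTG, which CACGTG contains, occurred in 22 of the 45 promoters of the 31 members with an entry (48.9%) and in 19.6% of all 32851 promoters of that length. CACGTG occurred in 5 of the 45 (11.1%) and in 7.15% of all. The 5 windows below, 61 bases each, 5′ to 3′ on the strand of the gene and all upstream of a transcript start, are shown because they belong to genes that moved with the cell cycle below, 4 upwards and Aldoa downwards. Capitals mark ACGTG or its reverse complement CACGT, joined where both overlap.
Ldha, chr7:46845728-46845788, + strand: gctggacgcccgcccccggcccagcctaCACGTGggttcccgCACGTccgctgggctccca
Pgk1, chrX:106186922-106186982, + strand: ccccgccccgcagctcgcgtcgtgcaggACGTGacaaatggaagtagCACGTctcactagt
Pgam1, chr19:41911729-41911789, + strand: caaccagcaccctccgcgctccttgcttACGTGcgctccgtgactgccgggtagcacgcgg
Slc16a1, chr3:104638436-104638496, + strand: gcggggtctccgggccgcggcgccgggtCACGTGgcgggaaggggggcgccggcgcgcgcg
Aldoa, chr7:126799348-126799408, - strand: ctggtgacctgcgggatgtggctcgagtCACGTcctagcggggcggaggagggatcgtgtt
The Ldha and Slc16a1 windows hold the full CACGTG, the Pgk1 and Ldha windows hold 2 marked stretches each, and the Aldoa window holds 1. A match says that these letters are there, and not that a factor was bound.

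The first comparison asked how the genes of healthy LSK cells vary with the cell cycle, in the 3 PBS libraries, each library serving as its own block. From G1 to S phase Tpi1, Gapdh, Pgk1, Pgam1, Eno1, Pkm and Ldha rose, and the glucose carrier Slc2a3, the lactate dehydrogenase subunit Ldhb and the aldolase Aldoa fell as a share of all UMIs. Of 31 members tested, 13 were higher in S phase and 8 lower at an adjusted p under 0.05 (edgeR quasi-likelihood test, Benjamini-Hochberg adjusted over all 12262 genes). Among all genes tested 29.4% were higher and 26.1% lower. The median log2 fold change was 0.21 over the tested members and -0.02 over all genes.

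Triose phosphate isomerase (Tpi1), which interconverts the triose phosphates made by aldolase, showed the widest rise. Its level in G1 cells was 244, 249.98 and 188 CPM in PBS replicates 1 to 3, and in S cells 462, 505 and 335 CPM. All S values were above all G1 values, a log2 fold change of 1.09 ± 0.0443 (SE, adjusted p = 6.52e-17, edgeR). Ldha, the subunit that favours lactate formation, was at 270.1, 309.7 and 183 CPM in G1 and at 450.0, 562 and 316 CPM in S. Here too every S value lay above every G1 value, by 0.96 ± 0.0510 (adjusted p = 1.46e-14, edgeR). Gapdh went from 1679, 1945 and 1575 to 2541, 3040.2 and 2306 CPM, again without overlap, by 0.77 ± 0.0408 (adjusted p = 1.51e-14, edgeR). The phosphoglycerate mutase Pgam1 rose by 0.92 ± 0.0485 (adjusted p = 1.38e-14, edgeR) and the phosphoglycerate kinase Pgk1 by 0.76 ± 0.0473 (adjusted p = 4.29e-13, edgeR), both in each of the 3 libraries. Eno1, Eno3, Gpi1, Hk2, Minpp1, Pfkl, Pkm and Slc16a1 rose as well, so that of the 5 steps from triose phosphate isomerase to enolase all had a member that rose.

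Slc2a3 showed the opposite course. It was at 62.2, 35.5 and 42.0 CPM in G1 cells and at 29.0, 23.8 and 20.6 CPM in S cells of PBS replicates 1 to 3. The log2 fold change was -0.81 ± 0.0940 (adjusted p = 4.84e-08, edgeR), and every S value lay below every G1 value. Ldhb, the subunit that favours the return of lactate to pyruvate, was at 178, 168 and 134 CPM in G1 and at 130.3, 107 and 88.2 CPM in S (-0.38 ± 0.0548, adjusted p = 2.01e-06, edgeR). With Ldha rising, Ldhb made up 39.1 ± 3.6% of the lactate dehydrogenase UMIs in G1 cells and 20.1 ± 3.6% in S cells (n = 3). Aldoa, which splits fructose 1,6-bisphosphate, was lower in S than in G1 within each library (-0.27 ± 0.0582, adjusted p = 0.000316, edgeR), although the values of G1 and S cells overlapped between libraries. Aldoc, Bpgm, Pdk2, Pfkfb4 and Slc2a1 were the other 5 members that fell.

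In G2M cells Pgk1, Tpi1, Gapdh, Pgam1 and Ldha were again higher than in G1, and Aldoa, Slc2a3 and Ldhb lower. Against G1, 7 of 31 members were higher (28.5% of all genes) and 11 lower (24.8% of all genes), with a median of -0.18 over the members and -0.02 over all genes. Pgk1 (0.70 ± 0.0477), Tpi1 (0.65 ± 0.0451), Gapdh (0.54 ± 0.0407), Pgam1 (0.50 ± 0.0503) and Ldha (0.32 ± 0.0524) led the rises, with adjusted p of 9.68e-06 or less (edgeR). Aldoa was at 547, 449 and 370.5 CPM in G1 cells and at 208, 132 and 151 CPM in G2M cells of the PBS libraries. That is a log2 fold change of -1.26 ± 0.0621 (adjusted p = 3.26e-15, edgeR), with no overlap. Slc2a3 (-1.08 ± 0.0995), Ldhb (-0.61 ± 0.0569), Pdk1 (-0.55 ± 0.0877) and Hk2 (-0.35 ± 0.0867) fell too, with adjusted p of 0.00123 or less (edgeR).

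Cells in S and G2M had more UMIs, with a median of 6012 and 7066 against 3541 in G1. Counted per cell, Tpi1 rose further than in CPM, and went from 85.8, 209.9 and 71.9 UMIs per 100 G1 cells to 266, 716 and 211 per 100 S cells in PBS replicates 1 to 3. The falls in S turned on this scale for Ldhb, Aldoa and Bpgm. Bpgm went from 8.17, 20.2 and 6.59 UMIs per 100 G1 cells to 8.47, 22.4 and 8.45 per 100 S cells. Ldhb went from 62.4, 141 and 51.2 UMIs per 100 G1 cells to 74.9, 151 and 55.4 per 100 S cells and was also above G1 in G2M cells (70.4, 170.2 and 54.2). Aldoa rose from 192, 377 and 141 per 100 G1 cells to 240.05, 429 and 179 per 100 S cells, and was below G1 in G2M cells (143, 211 and 115). Slc2a3 per 100 cells was lower in S than in G1 in PBS replicates 1 and 3 and higher in PBS replicate 2 (29.8 in G1 and 33.8 in S). The falls of Pdk1 and Hk2 in G2M turned as well, Pdk1 going from 12.8, 29.2 and 17.2 UMIs per 100 G1 cells to 13.7, 42.1 and 20 per 100 G2M cells and Hk2 from 12.4, 40.6 and 16.0 to 14.7, 55.6 and 23.8. With class added as a term, 11 of 26 members tested were higher and 4 lower in S (26.6% and 29.0% of all genes), and in G2M 4 were higher and 7 lower (18.4% and 21.1% of all genes). In that fit Ldha no longer differed between G2M and G1 at the threshold and its sign turned (-0.14, adjusted p = 0.206, edgeR). Scaling to the plain library size in place of TMM, edgeR's trimmed mean scaling, moved the median of all genes by -0.17 in S and by -0.20 in G2M. The higher share of all calls then fell from 53.0% to 34.4% in S and from 53.5% to 30.2% in G2M, and the members split into 11 higher and 9 lower in S and 5 higher and 17 lower in G2M. Pkm in G2M had 0.02 with TMM and -0.17 with the library size, and no member that passed in either phase turned its sign.

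**Figure D2:**
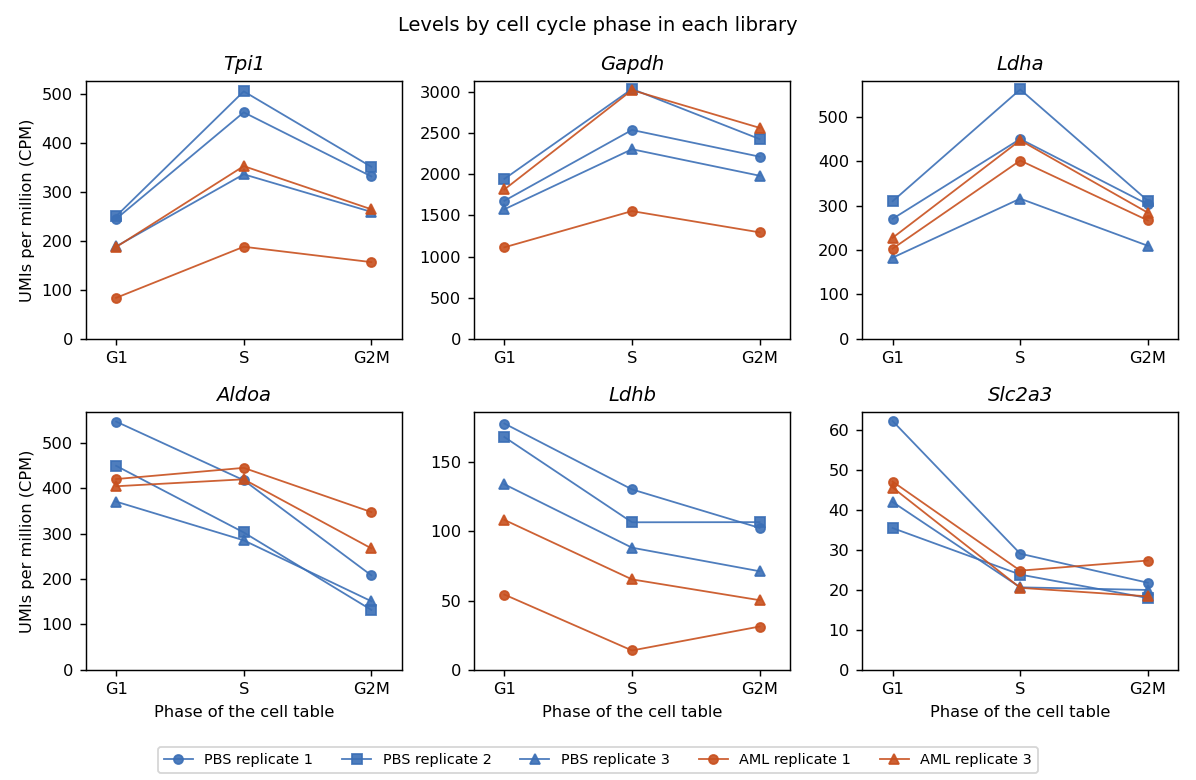
Level (CPM) of 6 genes by cell cycle phase as deposited, 1 line per library, blue for PBS and orange for AML. Tpi1, Gapdh and Ldha peak in S phase in all 5 libraries, Ldhb and Slc2a3 are highest in G1 in all 5, and Aldoa falls to 132 to 208 CPM in G2M cells of the PBS libraries and to 267 to 347 CPM in those of the AML libraries.

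The other genes of central carbon metabolism that were listed beside the members were counted in S phase against the same background, 29.4% of all genes higher and 26.1% lower. Of the TCA cycle genes 16 of 17 rose in S, led by the fumarase Fh1 (log2 fold change 1.01) and the isocitrate dehydrogenase subunit Idh3a (1.02), and 13 rose in G2M. Of the pentose phosphate genes 6 of 7 rose in S, with Pgls at 0.79 and the transketolase Tkt at 0.62, and in G2M 4 rose while Taldo1 fell (-0.15). Both mitochondrial pyruvate carrier genes, Mpc1 (0.41) and Mpc2 (0.40), rose in S among 10 pyruvate entry genes, the other 8 not passing. None of 8 glycogen genes rose and 3 fell, the branching enzyme Gbe1 (-0.57), Pygm (-1.56) and Pygl (-0.41). Of 12 regulators, 6 fell in S, with the glucose uptake inhibitor Txnip at -1.36 and Mycn at -0.83, and 3 rose, Egln1 (0.38), Myc (0.23) and Egln2 (0.25). Of 12 other targets of the hypoxia-inducible factors 1 rose (Higd1a, 1.12) and 3 fell, Ddit4 (-1.15) among them. The share that fell was near that of all genes, and the share that rose was below that of all genes. Among 13 further glycolysis and lactate genes 5 rose, with Bsg (0.48), the chaperone of the lactate carriers, Adpgk (0.61) and Tigar (1.13), and Galm fell (-1.22). ACGTG was found for 7 of the 13 members that rose in S, for 4 of the 7 with a promoter entry among those that fell, and for 8 of the 10 that passed in neither direction.

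The second comparison set the progenitor classes against the HSC class in the same 3 PBS libraries. These classes were cut from scores on the RNA of the same cells. In MPP-2, 8 of 31 members were higher (26.1% of all genes) and 9 lower (25.5% of all genes). In MPP-3, 12 were higher (20.2%) and 5 lower (15.7%), and in MPP-4, 6 were higher (14.7%) and 7 lower (13.4%). Scaling to the library size moved the all-gene median by -0.23 in MPP-2 and by -0.33 in MPP-3. It turned the higher share of all calls from 50.6% to 26.6%, from 56.3% to 16.9% and, in MPP-4, from 52.1% to 39.1%. The members then split into 5 higher and 13 lower, 5 and 11, and 3 and 7, and Gpi1 in MPP-2 (0.20 to -0.02) and Pkm in MPP-3 (0.34 to -0.03) turned their sign.

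Slc2a3 was highest in the HSC class, at 82.2, 48.5 and 54.1 CPM in PBS replicates 1 to 3. MPP-2 cells had 27.3, 22.3 and 22.8 CPM, MPP-3 cells 31.98, 5.11 and 21.5 CPM, and MPP-4 cells 40.2, 26.6 and 28.4 CPM. All 9 progenitor values lay below all 3 HSC values, the lowest being that of the 41 MPP-3 cells of PBS replicate 2. Against HSC the log2 fold change of MPP-2 was -1.17 ± 0.106 (adjusted p = 2.32e-09), that of MPP-3 -1.10 ± 0.139 (1.06e-06) and that of MPP-4 -0.91 ± 0.103 (2.41e-07, all edgeR). Pdk3, a pyruvate dehydrogenase kinase, was at 51.1 ± 0.165 CPM in the HSC class, while MPP-2 had 31.3 ± 6.51, MPP-3 22.9 ± 5.32 and MPP-4 23.4 ± 2.35 (n = 3 each), with no overlap between HSC and any other class. As a share of UMIs it fell by 0.50, 0.74 and 1.06 on the log2 scale, with adjusted p of 0.000135 or less (edgeR). HSC cells had a median of 3397.5 UMIs and MPP-2 cells of 6709. Per 100 cells, Pdk3 was at 18.1, 40.4 and 18.8 UMIs in HSC and at 22.7, 54.2 and 16.4 in MPP-2, higher in 2 of the 3 libraries, and was lower than in HSC in each library for MPP-3 and MPP-4. Ldhb was highest in HSC as well, at 183 ± 28.3 CPM, with MPP-2 at 97.7 ± 19.8, MPP-3 at 75.5 ± 29.5 and MPP-4 at 145 ± 16.4, and passed in all 3 contrasts. Per 100 cells Ldhb was at 70.6, 157 and 55.5 UMIs in HSC and at 73.2, 161 and 52.1 in MPP-2, while Slc2a3 was lower than in HSC in all 3 classes and libraries. Bpgm and Aldoc fell in all 3 contrasts as well. Over the 23 members with at least 10 CPM, the HSC class held the highest level of 12, among them Slc2a1, Hk1, Hk2, Bpgm and Pfkfb3. That count is on CPM without TMM, a scale on which 41.4% of all genes were called lower in MPP-2 than in HSC and 38.8% in MPP-3.

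Pgam1, Pgk1 and Gapdh were higher than in HSC in all 3 progenitor classes. Pgam1 was at 122 ± 40.2 CPM in HSC and 212 ± 45.4 in MPP-3. With TMM scaling, which these CPM levels lack, its log2 fold change there was 1.24 ± 0.0728 (adjusted p = 4.88e-12, edgeR). Pgam1 also rose in MPP-2 (0.76 ± 0.0651) and MPP-4 (0.45 ± 0.0661). Pgk1 rose by 0.77 ± 0.0651 (MPP-2), 0.59 ± 0.0743 (MPP-3) and 0.33 ± 0.066 (MPP-4). Gapdh rose in all 3 classes too (0.67, 0.65 and 0.21). The glucose phosphate isomerase Gpi1 rose in MPP-3 (0.43 ± 0.0626) and MPP-4 (0.23 ± 0.0549), Ldha in MPP-2 (0.59 ± 0.0621) and MPP-3 (0.48 ± 0.0695), and Tpi1 in MPP-2 (0.69 ± 0.066) and MPP-3 (0.40 ± 0.0742). Some members went their own way by class. Pdk1 was highest in MPP-4 (0.46 ± 0.102, adjusted p = 0.00125, edgeR), Hk1 fell in MPP-4 (-0.45 ± 0.0988, adjusted p = 0.00121, edgeR), and in MPP-2 both Aldoa (-0.74 ± 0.0774, adjusted p = 2.27e-08) and Hk2 (-0.29 ± 0.106, adjusted p = 0.0248) fell. Hk2 lost its call in MPP-2 without PBS replicate 1 (adjusted p = 0.227) and without PBS replicate 2 (0.0534, edgeR). Hk1 lost its call in MPP-4 without PBS replicate 1 (0.0766) and so did Ldhb (0.104), while Gpi1 in MPP-4 lost it without PBS replicate 3 (0.0682, edgeR).

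**Figure D3:**
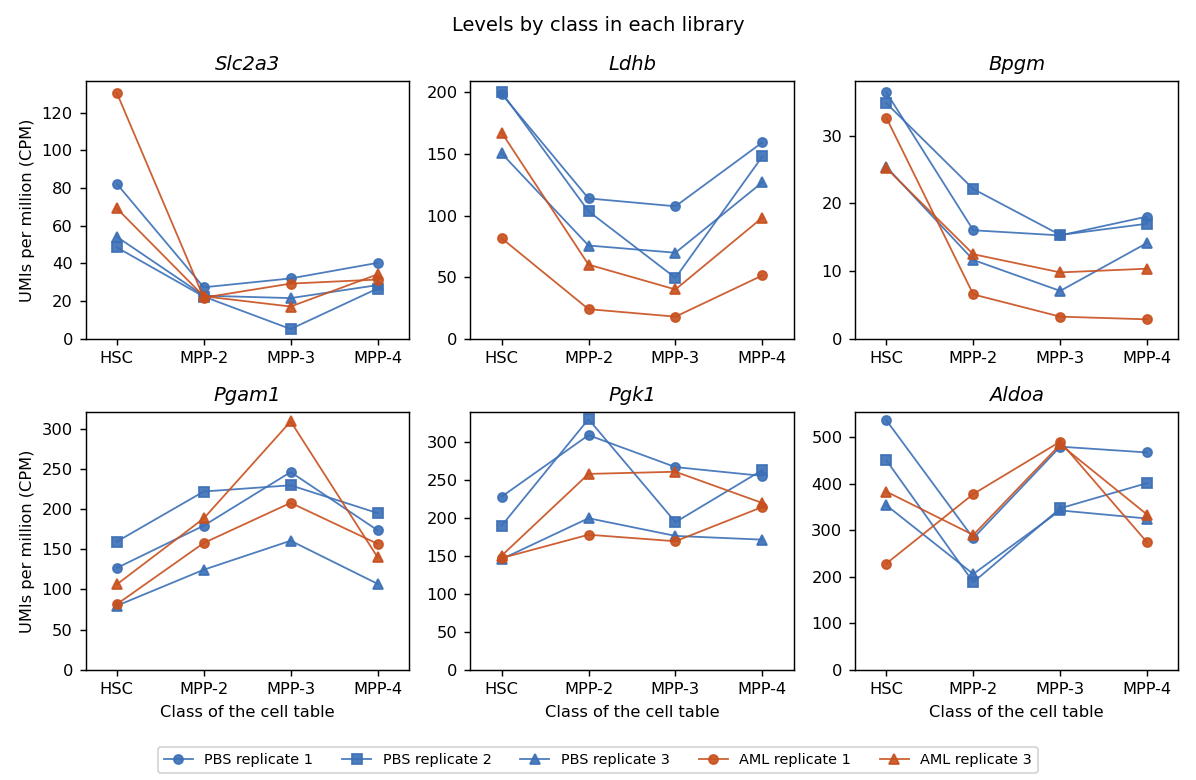
Level (CPM) of 6 genes by class as deposited, 1 line per library, blue for PBS and orange for AML. Slc2a3 is highest in the HSC class in all 5 libraries and so are Ldhb and Bpgm, while Pgam1 is highest in MPP-3 in 5 of 5. Aldoa is lowest in MPP-2 in the 3 PBS libraries and AML replicate 3, and lowest in HSC in AML replicate 1. The HSC class of AML replicate 1 is 23 cells, so its levels rest on few UMIs.

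Restricting the class comparison to G1 cells left few calls between MPP-2 and HSC, among the members as among all genes. There 3 of 30 members passed, each of them higher (3.82% of all genes were higher and 1.82% lower), from 211, 16 and 180 MPP-2 cells in PBS replicates 1 to 3. Ldha (0.64 ± 0.113, adjusted p = 0.000617), Gapdh (0.40, 0.00465) and Pgk1 (0.39, 0.0338) kept their rise. Slc2a3, which had fallen by 1.17 over all cells, was at -0.09 ± 0.174 (adjusted p = 0.851), Pgam1 at 0.13 (0.717) and Ldhb at -0.36 (0.0866, all edgeR). Aldoa turned its sign to 0.11 ± 0.0950 (adjusted p = 0.594). Pdk3 lost its call with a fold no smaller than over all cells (-0.60 ± 0.203, adjusted p = 0.0771, edgeR), and Bpgm was at -0.46 (0.338). In MPP-3 and MPP-4 more calls were left. Among G1 cells of MPP-3 4 of 30 members were higher (8.53% of all genes), with Pgam1 at 0.78 (adjusted p = 1.3e-05, edgeR), and 3 lower (6.52% of all genes), Pdk3 (-0.91), Slc2a3 (-0.87) and Ldhb (-0.51), whereas Ldha was at -0.03 (adjusted p = 0.930). Of the 4 rises, those of Pgam1 and Gapdh were not seen in CPM in every library. Pgam1 went from 116, 152 and 75.2 CPM in HSC to 172, 85.2 and 94.0 CPM in PBS replicates 1 to 3, and Gapdh, called higher at 0.30, was lower in each library, at 1579, 1004 and 1374 CPM against 1633, 1849 and 1517 CPM. Among G1 cells of MPP-4 (9.35% of all genes higher and 10.1% lower), Pdk1 (0.52), Pgam1 (0.38), Pgk1 (0.30) and Gpi1 (0.22) were higher, and Pdk3 (-0.96), Slc2a3 (-0.82), Bpgm, Aldoc and Hk1 lower. Fewer cells enter these sums, and the part of the smaller counts in the lost calls was not tested.

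**Figure D4:**
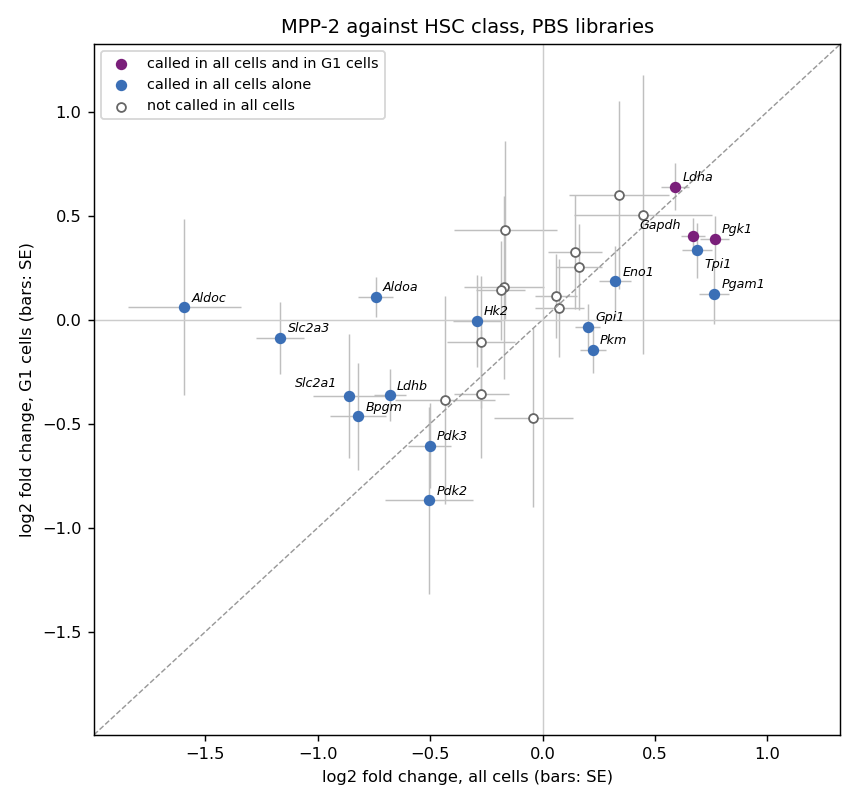
Log2 fold change of MPP-2 against HSC in the PBS libraries over all cells (horizontal) and over G1 cells alone (vertical), 1 point per gene with bars for the SE, and a dashed line where both are equal. Purple points (Ldha, Gapdh and Pgk1) passed in both, blue points in all cells alone; Slc2a3 and Aldoa, at -1.17 and -0.74 over all cells, lie near 0 among G1 cells.

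The other lists were taken over all cells, in the order MPP-2, MPP-3, MPP-4 against HSC. Of all genes 26.1, 20.2 and 14.7% were higher in these contrasts. Of 17 TCA cycle genes 11, 11 and 8 were higher, with Fh1 at 0.99, 1.07 and 0.57. In MPP-4 1 was lower (Suclg2), against 13.4% of all genes. Of 7 pentose phosphate genes 5, 6 and 3 were higher. Txnip (-1.69, -1.43 and -0.88) and Mycn (-1.13, -1.74 and -1.01) were lower in all 3 classes, and Higd1a was higher in all 3 (0.86, 0.90 and 0.36).

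The deposited clusters (0 to 8) were made from the expression of genes, and are described without a test. Cluster 4, with 826 cells of which 78.1% were in S or G2M, held the highest PBS mean of 8 of the 23 members with at least 10 CPM, with Gapdh at 2931 ± 351 CPM and Pgam1 at 352 ± 53.1. Cluster 3 (1445 cells, 97.6% in S or G2M) was highest for Tpi1 (439 ± 80.7), Pgk1 and Pkm. Cluster 0 (6367 cells) was highest for Ldhb (145 ± 25.8) and Slc2a3 (49.7 ± 10.5). Cluster 6, 177 cells with a median of 8667 UMIs, held the highest level of none of the 23. Of its cells 8.47% were in S or G2M. Over PBS replicates 1 and 3 alone, cluster 6 had Gapdh at 496 ± 83.7, Ldha at 36.4 ± 14.1 and Eno1 at 7.04 ± 3.72 CPM. PBS replicate 2 had 12 cells in it, too few for a level.

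The third comparison asked whether C1498 engraftment changed these genes in host LSK cells. Over all LSK cells, 0 of 31 members passed the test in either direction (0.16% of all 14364 genes tested), 6 had an unadjusted p under 0.05, and DESeq2 passed 1 and limma-voom 0. The ranges of the groups did not overlap for 10 members, 5 with AML above and 5 below, against 29.7% of all genes. The median log2 fold change, AML minus PBS, was -0.19 over the members and -0.03 over all genes. Members together took 0.474, 0.522 and 0.377% of the UMIs in PBS replicates 1 to 3 and 0.364 and 0.478% in AML replicates 1 and 3.

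Ldhb came nearest to the threshold. Its level was 143, 134 and 102 CPM in PBS replicates 1 to 3 and 28.8 and 75.2 CPM in AML replicates 1 and 3. Both AML values lay below all PBS values, a log2 fold change of -1.24 ± 0.321 (adjusted p = 0.190, edgeR). DESeq2 gave an adjusted p of 0.0222, and the edgeR value ran from 0.00580 without AML replicate 3 to 0.746 without AML replicate 1, fits in which the lone AML library is assumed to vary like the PBS libraries. Ldhb made up 30.01, 25.8 and 30.8% of lactate dehydrogenase UMIs in the PBS libraries and 8.70 and 19.2% in the AML libraries, a difference of -14.9 percentage points (exact two-sided permutation test, p = 0.1, the smallest that 10 splits allow, adjusted p = 0.489 over 22 shares). Bpgm was at 19.8, 21.9 and 14.0 CPM against 5.65 and 12.2 (-0.89 ± 0.284, adjusted p = 0.294, edgeR), and Aldoc at 4.14, 7.40 and 2.42 against 1.03 and 1.81 (-1.46 ± 0.486, adjusted p = 0.318, edgeR). These 3 members were below in both AML libraries and none passed. Pfkm and Pdk3 also lay below without overlap.

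Beside these values, the HSC class, in which Ldhb and Bpgm were highest, held 20.5, 23.9 and 21.9% of the cells of the PBS libraries but 3.32 and 13.7% of those of the AML libraries. In such sums fewer cells of a class and less RNA per cell cannot be told apart. Within each of the 3 progenitor classes, too, both AML values of Ldhb lay below all PBS values, by amounts given with the classes. Phase makeup differed as well, with 14.7% of the cells of AML replicate 1 in G1, where Ldhb and Bpgm were highest in PBS. Among G1 cells alone Ldhb was at -0.91 ± 0.272 (adjusted p = 0.433) and Bpgm at -0.64 ± 0.274 (0.911, both edgeR). The summed level of 10 erythroid markers was 1168, 786 and 811 CPM in PBS and 275 and 587 CPM in AML, with 3 of the 10 below in both AML libraries and 5 at 0 in AML replicate 1, and their part in the Ldhb and Bpgm values was not tested. The 10 neutrophil markers summed to 4.13 to 19.1 CPM in PBS and to 5.14 and 7.28 in AML. Of the class markers, 11 of 15 for HSC and 8 of 12 for MPP-2 were below in both AML libraries, and 7 of 10 for MPP-3 were above, with a sum of 802 to 1386 CPM in PBS and of 1971 and 1945 in AML. Their part in the AML values was not tested.

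On the other side, the inducible hexokinase Hk2 stood at 30.8, 45.9 and 40.9 CPM in PBS replicates 1 to 3 and at 110.0 and 47.0 CPM in AML replicates 1 and 3. The AML values were above all PBS values, in replicate 3 by less than the spread between PBS libraries, and the difference did not pass (adjusted p = 0.344, edgeR). Hk3, Pfkp, Pfkfb3 and Slc16a1 were likewise above without overlap, with Pfkfb3 at 15.9, 12.7 and 17.2 against 36.0 and 18.04 CPM. Eno1 was at 205 CPM in AML replicate 1 and at 56.2 in AML replicate 3, within the PBS range of 50.9 to 95.3. The high AML values of Hk2, Pfkfb3 and Eno1 thus came from AML replicate 1, the library with the fewest UMIs and with most of its UMIs outside kept cells, whose part in these values was not tested. None of the tested genes of the other 7 lists passed in this comparison.

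Within the classes too, no member passed between AML and PBS: 0 of 29 in HSC (0.178% of all genes), 0 of 31 in MPP-2 (0.0399%), 0 of 29 in MPP-3 (0.0486%) and 0 of 31 in MPP-4 (0.0325%), with 2, 4, 3 and 3 members at an unadjusted p under 0.05. DESeq2 passed 0 members in each of the 4. Ldhb had the lowest p of the members in the 3 progenitor classes. It was at -1.14 ± 0.319 for MPP-2 (adjusted p = 0.342), -1.40 ± 0.341 for MPP-3 (0.151) and -0.90 ± 0.260 for MPP-4 (0.379, all edgeR). With 1 library left out Ldhb ran from -2.08 to -0.73 in MPP-2, from -2.25 to -1.08 in MPP-3 and from -1.64 to -0.63 in MPP-4. Both AML values of Ldhb lay below all PBS values in each of these classes. In HSC its AML values of 81.6 and 167 CPM straddled the lowest PBS value of 150.5, and the 23 HSC cells of AML replicate 1 limit that comparison. There Aldoa (-0.60 ± 0.301), Tpi1 (-0.59) and Gpi1 (-0.58) had the lowest p, each with an adjusted p of 0.992 (edgeR). Hk2 (1.07 ± 0.371, adjusted p = 0.487) and Hk3 (0.87, 0.544) followed in MPP-2, Eno1 (0.96, 0.599) and Pfkfb3 (0.90, 0.624) in MPP-3, and Bpgm (-0.87, 0.655) and Tpi1 (-0.57, 0.817) in MPP-4. The 4 positive differences were smaller without AML replicate 1: Hk2 was at 0.18 and Hk3 at 0.40 in MPP-2, and Eno1 at -0.04 and Pfkfb3 at 0.49 in MPP-3. Without AML replicate 3, with 1 AML library left, Hk2 was at 1.78 in MPP-2 (adjusted p = 0.0248, edgeR), Hk3 at 1.58, Pfkfb3 at 1.52 and Bpgm in MPP-4 at -2.65, the last 3 not passing. Library size scaling moved the all-gene median by 0.15 in HSC and by 0.12 in MPP-3, and the higher share of calls from 73.7% to 86.2% and from 40.0% to 61.9%.

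Whether the AML difference varied between classes was tested in 1 fit with class-by-treatment terms. Here 2 of 31 members passed (0.872% of all 12734 genes), Aldoa and Ldhb, and 9 had an unadjusted p under 0.05. Aldoa was lower than or within the PBS range in HSC cells of the AML libraries, at 228 and 383 CPM against 536, 450.4 and 354. In MPP-2 cells it was above that range, at 378 and 289.9 CPM against 283, 188 and 206. Relative to HSC, its AML difference was higher by 0.88 for MPP-2, by 0.61 for MPP-3 and by 0.04 for MPP-4 (adjusted p = 0.00454, edgeR). AML replicate 1 had 23 HSC cells, which limits the terms of both members. For Ldhb the terms were -0.50, -0.90 and -0.36 (adjusted p = 0.0341, edgeR), and its call was lost without PBS replicate 1 (0.545), PBS replicate 3 (0.168) or AML replicate 3 (0.880). Neither passed when the library was a random effect in limma-voom (Aldoa 0.622, Ldhb 1.00).

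Since Aldoa was also, among members of at least 20 CPM, the one with the largest fall in G2M cells, the same test was made by phase, a choice made after these values were seen. In PBS libraries Aldoa fell from 547, 449 and 370.5 CPM in G1 to 208, 132 and 151 in G2M. In AML replicates 1 and 3 it went from 420.2 and 404 CPM in G1 over 445 and 419.7 in S to 347 and 267 in G2M. The G1 values of the groups overlapped, and in both S and G2M the AML values lay above all PBS values. The AML difference was higher by 0.53 in S and by 0.95 in G2M than in G1 (adjusted p = 6.21e-06, edgeR), the only member of 31 that passed (0.461% of all genes), with 7 at an unadjusted p under 0.05. Leaving out each library in turn, with 1 AML library left in 2 of these fits, gave adjusted p of 4.06e-10 to 0.00347. Within the AML libraries alone Aldoa fell from G1 to G2M by 0.29 ± 0.102 on the log2 scale (adjusted p = 0.0209, edgeR), and from G1 to S it had 0.24 (0.0585), opposite in sign to PBS.

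Split by class as well, G2M cells of MPP-2 had 130 to 208 CPM of Aldoa in the 3 PBS libraries and 247 to 342 in the 2 AML libraries. In MPP-3 they had 283 to 345 (2 PBS libraries with at least 20 cells) and 407 to 470, and in MPP-4 101 to 164 (2 PBS libraries) and 181 to 184. In each of these 3 classes the AML values were above the PBS values. With class as a term the test by phase gave terms of 0.33 in S and 0.85 in G2M and an adjusted p of 0.0995 (edgeR). Of the 8931 genes in that fit 0 passed, with 3 of 27 members at an unadjusted p under 0.05. Sums of as few as 2 cells entered that fit, which limits it.

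**Figure D5:**
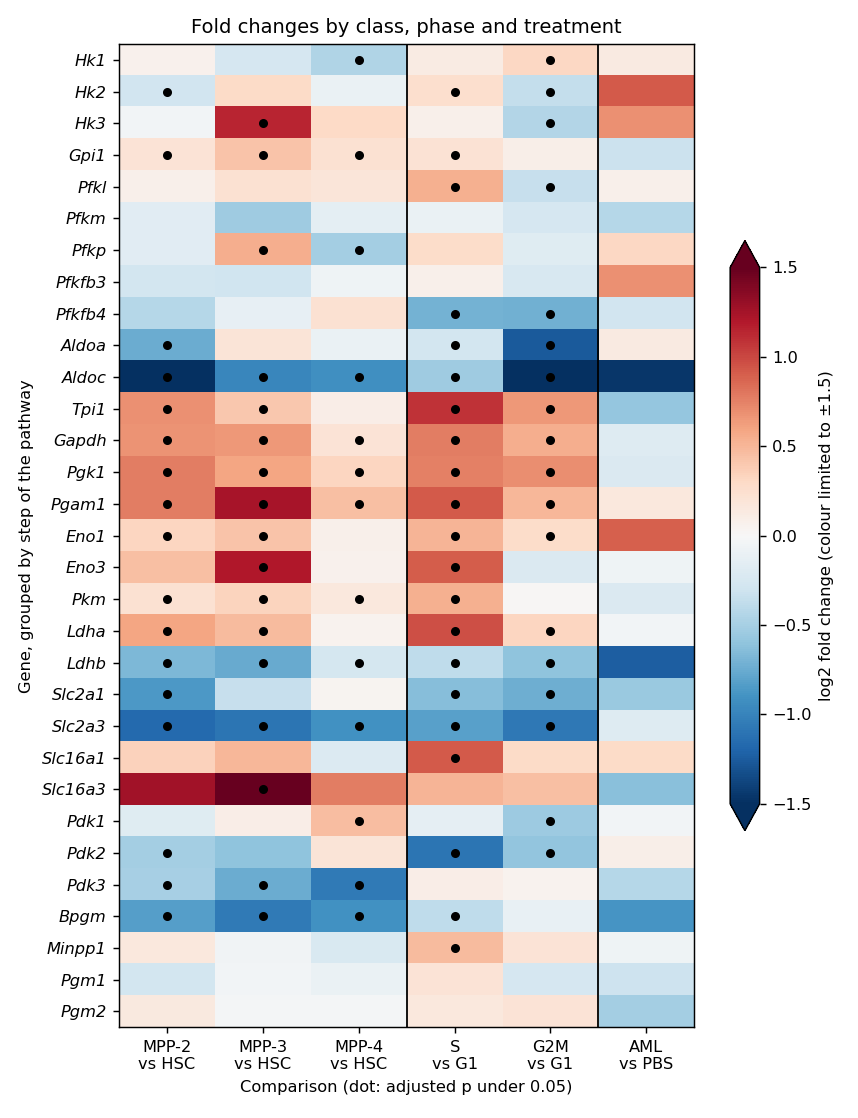
Log2 fold change (colour, limited to 1.5 in either direction) of each tested member in the comparisons of phase, class and treatment, with a dot where the adjusted p is under 0.05. Gapdh, Pgk1 and Pgam1 are red with a dot in all 5 columns of class and phase, Slc2a3 and Ldhb are blue with a dot in the same 5, and the AML column holds 0 dots.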

How the data were processed

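Single-cell RNA of sorted LSK cells was measured in 6 libraries on the 10x Genomics platform (GEM V3). The matrices that the authors deposited contain raw UMI counts for each barcode, with no normalization. The deposited cell table of the authors gives class, cluster and phase, and the percent of mitochondrial UMIs per cell. The submitters' processing notes name Cell Ranger 7.0.1, R 4.2.2, Seurat 4.3.0 and GRCm38. A further 17 columns of that table were not used. Doublets were not called here.

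The members and the lists were chosen with earlier results of these data known. Counts of kept cells were summed per library, class or phase. Sums of under 20 cells were left out of the levels by class, phase, cluster and class-by-phase. They were not left out of the fits with class as a term. AML against PBS was fitted on 5 libraries, and class and phase on the PBS libraries with the library as a block, with edgeR 4.0.16 (R 4.3.3): filterByExpr, TMM, quasi-likelihood F test, Benjamini-Hochberg adjustment over all tested genes and a threshold of 0.05. The AML effect by class or phase was an F test of the interaction terms with the library as a block. The scripts were tested on simulated data. Of 2 identifiers named Aldoa, ENSMUSG00000030695 was used. Promoter windows are those of RefSeq on GRCm38.p6. Seurat's cell cycle list (Seurat 5.3.0) holds 0 members.

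Fold changes are given for members with an adjusted p under 0.05; where over 10 passed, for the 5 largest rises and falls with at least 20 CPM, and where none passed, for the 3 with the lowest p. Members outside this rule (Hk2, Eno1, Pfkfb3 over all LSK cells, and the G1, AML-library and G2M-by-class values) were named after their values were seen. Alternatives were DESeq2 1.42.0, limma-voom (limma 3.58.1), library size scaling, RLE factors, no filter on low counts, leaving out each library, a replicate block, no library block, thinning to 2000 UMIs per cell, G1 cells, the AML libraries, class as a term, clusters 5 to 8 left out, the 5% of cells with most UMIs left out, and an own filter on all barcodes of 6 libraries (at least 1000 genes and at most 10% mitochondrial UMIs).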

Additional observations from a re-analysis of the deposited data

Results flagged for a closer look

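The AML difference of Aldoa varied between classes (adjusted p = 0.00454, edgeR test of the class-by-treatment terms), with the AML values under or within the PBS range in HSC cells and above it in MPP-2 cells. It did not pass with the library as a random effect (adjusted p = 0.622, limma-voom). In AML replicate 1 the HSC class, to which the terms are relative, held 23 cells. For Ldhb the AML difference varied as well (adjusted p = 0.0341, the same edgeR test), with a term of -0.90 for MPP-3 relative to HSC cells. That call was lost without PBS replicate 1 (0.545), PBS replicate 3 (0.168) or AML replicate 3 (0.880), and with the library as a random effect (1.00).

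The AML difference of Aldoa also varied between phases (adjusted p = 6.21e-06, edgeR test of the phase-by-treatment terms, chosen after the values were seen). Aldoa fell from G1 to G2M by 1.26 on the log2 scale in the PBS libraries and by 0.29 in the AML libraries. AML replicate 1, the shallowest library, had 14.7% of its cells in G1, and the part of its depth and makeup in these values was not tested. With class as a term, in a fit that sums of as few as 2 cells entered, the adjusted p by phase was 0.0995 (edgeR). Without AML replicate 1 it was 0.000440, from a fit with 1 AML library, which is assumed to vary like the others.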

How the results depend on the processing

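Over all LSK cells, where 0 members passed between AML and PBS, 1 passed with DESeq2, 5 without a filter on low counts and 0 to 5 with 1 library left out, the 5 without AML replicate 3, where the lone AML library is assumed to vary like the PBS libraries. Calls among all genes rose too, to 1.05% higher and 0.764% lower without the filter and to 1.97% and 0.987% without AML replicate 3. With the replicate block 1 passed (Ldhb, -1.33, adjusted p = 0.0308), and in MPP-3 also 1 (Ldhb, -1.59, adjusted p = 0.0319). The labels of same-numbered libraries share only a number. Their deviations correlated at r = -0.10 and -0.13. With 2 AML libraries, whose deviations mirror each other, these values cannot show whether the libraries are paired. The block changed no call in HSC, MPP-2 and MPP-4. By class, dropping the filter gave 2 members in MPP-2 and 1 in MPP-3, and leaving out libraries 0 to 2 and 0 to 1. Leaving out the 2 to 26 cells per library whose barcode was kept in another library, an alternative chosen after seeing the data, gave 0. Kept cells whose barcode occurs in another matrix without being kept there stayed in.

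The AML effect by class, with 2 members, gave 1 with library size scaling, 6 without the filter, 0 with the library as a random effect and 1 to 5 with libraries left out. The effect by phase and its alternatives were chosen after seeing the data. Its 1 member (0.461% of all genes) became 2 with library size scaling (0.498%) and 3 without the filter (0.815%). It became 0 with class as a term (0%) and 1 to 3 with a PBS library left out (0.282 to 0.76%).

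Against HSC, 17 members were called for MPP-2, 17 for MPP-3 and 13 for MPP-4, and dropping the library block left 9, 7 and 3, with the shares of all genes falling likewise (to 11.8% higher and 11.0% lower, 7.84% and 6.64%, and 3.68% and 5.26%). The AML libraries gave 10 in MPP-2 (15.8% of all genes higher and 10.8% lower) and 8 in MPP-4 (5.64% and 4.98%). G1 cells gave 3 in MPP-2 (3.82% and 1.82%) and 7 in MPP-3 (8.53% and 6.52%). Thinning gave 8 in MPP-4 (10.4% and 10.3%), and leaving out libraries gave 9 to 11 there (8.45 to 13.3% and 7.36 to 12.7%). The 21 of S became 9 without the block. The 18 of G2M (28.5% of all genes higher and 24.8% lower) became 7 without the block (10.7% and 8.51%). They became 11 in the AML libraries (17.3% and 9.74%) and 11 with class as a term (18.4% and 21.1%).

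Signs turned for Eno1 in MPP-3 (-0.0447 without AML replicate 1, 1.66 without AML replicate 3), Aldoa in MPP-2 against HSC (0.19 in the AML libraries, 0.11 in G1 cells), Aldoa in S (0.24) and Hk2 in G2M (0.0087) in the AML libraries, and Ldha in MPP-3 (-0.0256 in G1 cells) and in G2M (-0.14 with class as a term). Of the isoenzyme share differences, Hk3 (-1.36 points) and Pfkp (-0.255) turned in G1 cells, and Eno3 ran from -3.96 to 0.520 points with 1 library left out. Of the gene values recomputed, 568 kept direction and side of the threshold, 56 lost and 13 gained a call, and 7 turned; the causes were not tested. AML replicate 1, with 56 Ldhb UMIs, limits the AML comparisons.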

Other observations

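AML replicate 2, of which the cell table holds 0 cells, had 17055 barcodes and 7089569 UMIs in its matrix. Over all its barcodes Gapdh was at 1682 CPM, Ldha at 453, Aldoa at 391 and Ldhb at 65.4 CPM. Over all barcodes of the other AML libraries Ldhb was at 26.6 and 79.1 CPM, and over those of the PBS libraries at 144, 136 and 105 CPM. These values include barcodes without a kept cell and enter no comparison. With an own filter that kept 106 cells of AML replicate 2, of which 75 had a barcode that occurs in another matrix, Ldhb over 6 libraries had a log2 fold change of -1.20 (adjusted p = 0.0502, edgeR).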
